A study of Mus musculus with 8 samples.

Results

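Integrins and focal adhesion genes were followed in NIH3T3 cells, an established line of mouse embryonic fibroblasts of wild-type genotype, after treatment for 1 day with Mic-628 or with vehicle. The members are 37 genes, listed by symbol with earlier results of these data known: 12 integrin alpha subunits, 8 beta subunits, the beta-like gene Itgbl1, and 16 genes of the cytoplasmic plaque. Each was found in the deposited table of 78298 transcript rows, with 1 row per symbol. Both groups had 4 libraries of poly(A) RNA, were grown in medium with fetal bovine serum, and carried the batch numbers 1 to 4, so that each number occurs in both groups. The dose of Mic-628 and the nature of the vehicle are not given in the sources used here. The series title describes an inducer of the clock gene Period1, and the comparison asks which transcripts differed after the compound. Separate cultures within a group are not stated in the labels, and every p-value below rests on spread among libraries that may be technical.

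Integrins are surface receptors made of 1 alpha and 1 beta subunit. The pair decides the ligand: fibronectin and vitronectin through the RGD motif, collagens, laminins, or counter-receptors on other cells. On the inside, talin and kindlin bind the beta tail and switch the receptor on, vinculin and the zyxin family tie it to actin, and focal adhesion kinase with Src and its scaffold proteins turns attachment into signals. Fibroblasts use these adhesions to hold, pull on and assemble the matrix they secrete.

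Between 18106347 and 23158317 counts per library fell on listed transcripts. Markers of fibroblasts were abundant but not equal between groups: the 14 listed ones summed to 24308 to 25868 CPM (counts scaled to the library total) with vehicle and 21639 to 22185 CPM with Mic-628, and 6 of 14 fell and 0 rose at an adjusted p under 0.05 by edgeR, where 2.25% of all tested rows were lower. Most of the lower sum came from Fn1, which went from 14210 ± 847 to 11729 ± 203 CPM (SD, n = 4 each), and Vim went from 5001 ± 113 to 4306 ± 103 CPM. The other 8 markers were not called. Col1a1, Col5a1, Thy1, Pdgfra, Pdgfrb and Ddr2 had log2 fold changes of -0.0044 to 0.04. S100a4 and Lum were lower, at -0.10 and -0.51 (edgeR adjusted p 0.367 and 0.141). Lum was sparse, at 1.44 ± 0.122 and 1.01 ± 0.0981 CPM, and its groups did not overlap. In bulk RNA, fewer cells of a type and less RNA per cell cannot be told apart, and the part of this marker difference in the results below was not tested. Markers of other cells were low. Those of the endothelium summed to 1.06 to 2.21 CPM with vehicle and 1.10 to 1.33 CPM with Mic-628, and Tie1 and Emcn had no count in any library. Those of epithelia summed to 3.50 to 4.23 CPM with vehicle and 3.56 to 5.12 CPM with Mic-628.

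The 2 members that changed were beta subunits, and they went opposite ways. Itgb7, which encodes the β7 chain best known from lymphocytes, rose 1.85-fold, and Itgb5, which encodes the β5 chain of the vitronectin receptor αvβ5, fell by 10.7 percent. Of the 34 members expressed highly enough to be tested, 1 was higher, 1 was lower and 32 were not called at an adjusted p under 0.05 by edgeR's quasi-likelihood test. Over all 17128 tested rows 4.37% were called, 2.13% higher and 2.25% lower, and over the tested members 5.88%. The count of called members was therefore near the background. The median log2 fold change of the tested members was -0.0011, against -0.0040 over all tested rows, and their median absolute value was 0.06 against 0.07. An unadjusted p under 0.05 was found for 9 of the 34 (26.5%), against 17.0% of all tested rows. The values of the groups did not overlap for 4 of the 34 (11.8%), against 10.7% of all tested rows.

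**Figure D1:**
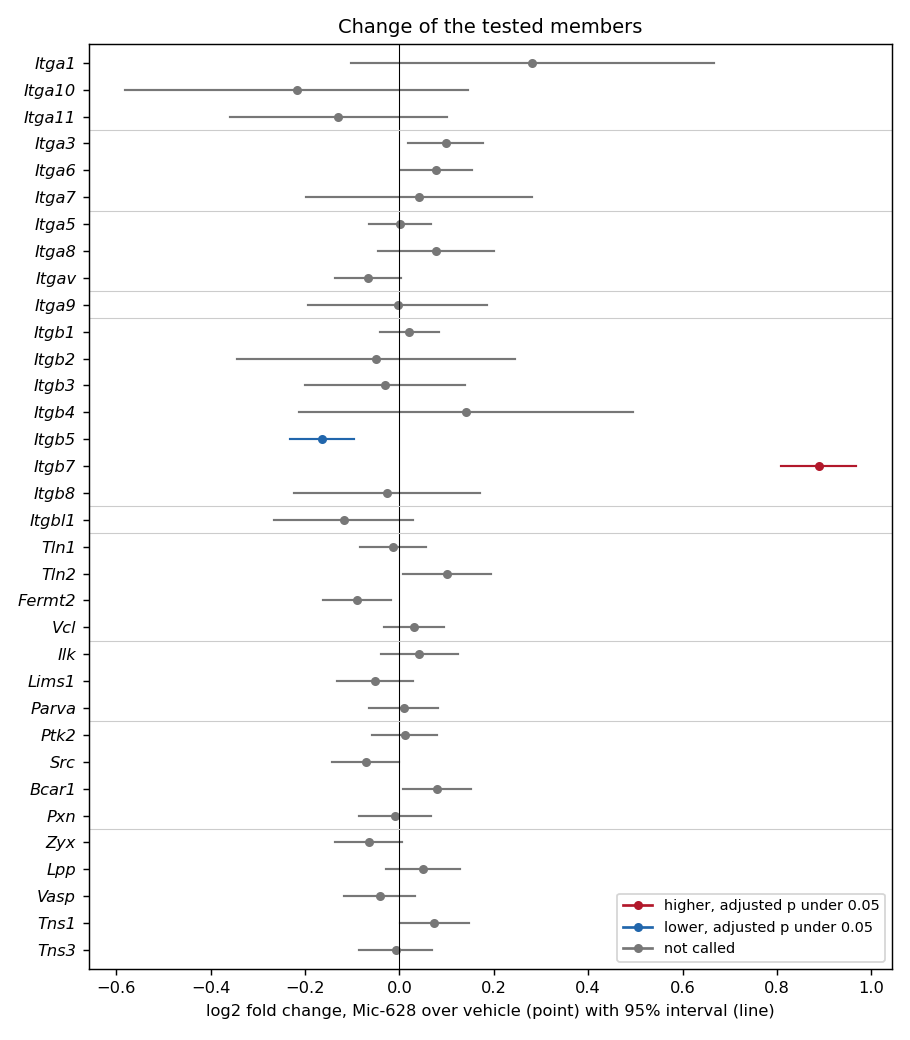
Log2 fold change of each of the 34 tested members, Mic-628 over vehicle (horizontal axis), with its 95% interval from edgeR, grouped by role between the grey lines. Itgb7 stands alone at 0.89 on the right and Itgb5 at -0.16 on the left of 0, while the abundant alpha subunits and the plaque genes cluster close to 0 with short intervals.

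Itgb7 lies on chromosome 15 (102124430 to 102140379, minus strand, mm39; transcript ENSMUST00000001327.11). With vehicle its level was 20.1, 19.4, 20.2 and 21.2 FPKM in replicates 1 to 4, and with Mic-628 it was 35.8, 36.5, 39.1 and 38.3 FPKM (fragments per kilobase of exon, scaled to the library total). All 4 Mic-628 libraries were above all 4 vehicle libraries, and the groups lay far apart relative to their own spread. On the log2 scale the change was 0.89 with SE 0.038 (adjusted p = 1.67e-14 by edgeR), a fold of 1.85 with a 95% interval of 1.75 to 1.95. That 4 of 4 batch pairs showed the rise follows from the lack of overlap. By p Itgb7 was in place 6 among the 17128 tested rows. No other row with a mean of at least 10 counts overlapped it.

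The β7 chain is known to pair with either of 2 alpha chains, α4 or αE, and neither was present at a comparable level. Itga4, one of the 37 members, had between 0 and 1 count per library, 3 counts over all 8 libraries. This is within what a count of 0 allows, which is 3 counts per library. Itgae, which encodes αE and is outside the member list, had 5.5 to 12 counts per library, a level of 0.101 ± 0.032 FPKM in vehicle and 0.0855 ± 0.018 FPKM in Mic-628 libraries (SD, n = 4 each). Among the ligands of β7 integrins, Madcam1 had 2 counts in all, and Vcam1 stood at 38.7 ± 2.15 FPKM with vehicle and 36.3 ± 0.437 FPKM with Mic-628 without being called (edgeR adjusted p = 0.156). The αE ligand Cdh1, which encodes E-cadherin, stood at 0.0118 ± 0.0235 CPM with vehicle and had no count with Mic-628.

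Because β7 is a leukocyte chain, the blood cell markers are given beside it. Of 12 macrophage and blood cell markers 2 passed the low-count filter, and neither was called. Cd68 went from 7.08 ± 0.255 to 7.997 ± 0.239 CPM (SD, n = 4 each), without overlap and hence higher in 4 of 4 pairs (unadjusted p = 0.038, adjusted p = 0.260 by edgeR). Csf1r went from 7.83 ± 0.499 to 9.09 ± 0.448 CPM, higher in 3 of 4 pairs (unadjusted p = 0.013, adjusted p = 0.149 by edgeR). The 12 summed to 15.04 to 16.5 CPM with vehicle and 16.6 to 18.04 CPM with Mic-628. On that scale Itgb7 went from 58.0 ± 2.12 to 107.3 ± 4.35 CPM (SD, n = 4 each), and the part of the marker difference in this rise was not tested. The pan-leukocyte gene Ptprc was at 0.178 ± 0.0882 CPM with vehicle and 0.224 ± 0.0532 CPM with Mic-628, and Adgre1 and Tyrobp had no count in any library. Itgb2, the β2 chain shared by the main leukocyte integrins, stood at 0.919 ± 0.110 and 0.897 ± 0.155 FPKM and was not called (edgeR adjusted p = 0.910).

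The gene next to Itgb7 rose as well. Rarg, which encodes retinoic acid receptor gamma, lies 2.996 kb upstream of Itgb7 on the same strand (102143375 to 102154935), and it was chosen after its values were seen. It had 43.4, 44.6, 42.6 and 41.8 FPKM with vehicle and 57.5, 54.8, 56.1 and 54.8 FPKM with Mic-628. Its groups did not overlap, with a change of 0.37 on the log2 scale (SE 0.033; adjusted p = 2.01e-08 by edgeR). The rise of Itgb7 was larger on the log2 scale, and whether the 2 rises are connected was not tested. Exon counts do not tell transcripts started at Itgb7 from reads that continue past the end of Rarg, so the values of Itgb7 may hold either. The other rows within 50 kb with at least 10 counts were not called: Zfp740 (log2 fold change -0.03) and Csad (-0.13) downstream of Itgb7, and Mfsd5 (-0.03) beyond Rarg.

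**Figure D2:**
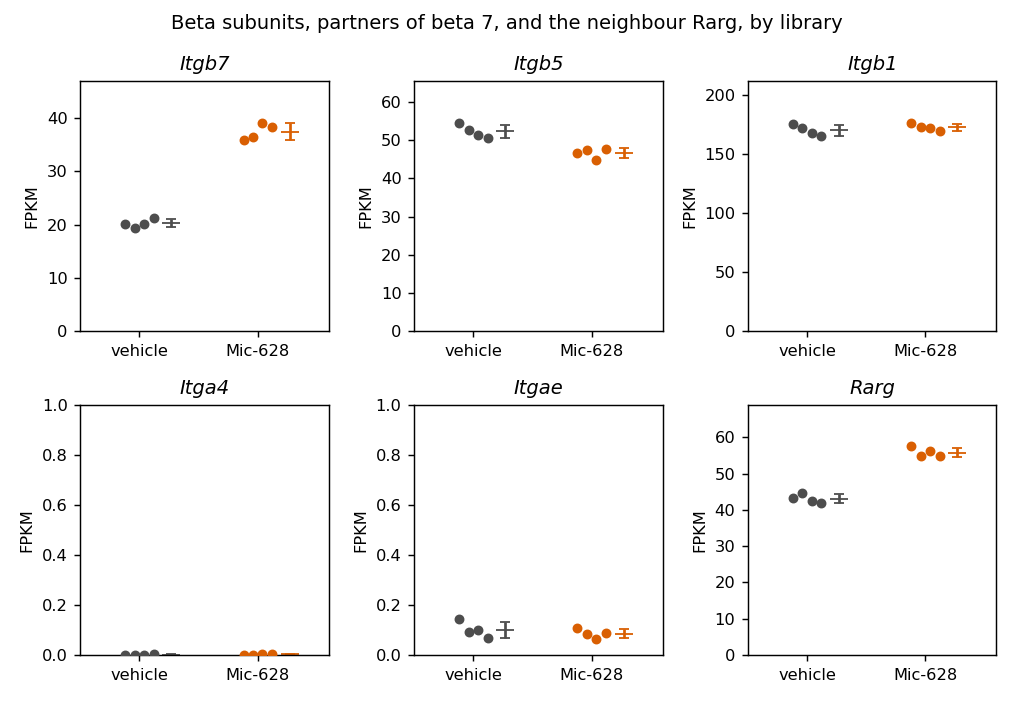
FPKM in each library (points) with the group mean and SD (bar at the right of each group), for vehicle in grey and Mic-628 in orange, each panel on its own linear axis from 0. Itgb7 and Rarg rise without overlap and Itgb5 falls, Itgb1 overlaps between groups, and the β7 partners Itga4 and Itgae stay near 0 in all 8 libraries.

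The promoters of the 2 changed members are shown because these are the members that differed, as the 250 bases before the gene start in RefSeq on GRCm38.p6 (another build than that of the deposited table), 5′ to 3′ on the gene's strand. Capitals mark the sequence CANNTG, the general form of the E-box, the kind of site through which the clock activators act. It reads the same on both strands.
Itgb7, chr15:102231936-102232185, minus strand: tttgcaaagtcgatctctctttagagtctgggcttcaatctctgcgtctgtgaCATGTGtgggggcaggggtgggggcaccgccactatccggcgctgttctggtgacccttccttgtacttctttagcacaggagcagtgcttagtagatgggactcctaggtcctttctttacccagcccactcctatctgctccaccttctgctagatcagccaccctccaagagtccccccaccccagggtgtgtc
Itgb5, chr16:33829415-33829664, plus strand: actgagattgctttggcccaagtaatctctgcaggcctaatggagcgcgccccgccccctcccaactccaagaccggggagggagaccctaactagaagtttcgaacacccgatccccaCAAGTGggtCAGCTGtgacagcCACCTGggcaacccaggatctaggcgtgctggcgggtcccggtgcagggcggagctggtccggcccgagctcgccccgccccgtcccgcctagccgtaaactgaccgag
Itgb7 holds 1 such match and Itgb5 holds 3. Of 32851 promoter windows of this length, 66.2% hold at least 1. The canonical clock form CACGTG is in neither window and is in 6.02% of all windows. The GC-box letters GGGCGG, searched on both strands, occur 3 times in the Itgb5 window and 0 times in that of Itgb7, and 32.7% of all windows hold them.

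Itgb5 lies on chromosome 16 (33650035 to 33769708, plus strand, mm39; ENSMUST00000115028.11). It had 54.5, 52.6, 51.3 and 50.6 FPKM with vehicle and 46.7, 47.5, 44.8 and 47.6 FPKM with Mic-628. Every Mic-628 library was below every vehicle library. The difference was small beside that of Itgb7, at -0.16 on the log2 scale (SE 0.033, adjusted p = 0.00342 by edgeR), a fold of 0.893 with a 95% interval of 0.851 to 0.936. Because the groups did not overlap, Itgb5 was necessarily lower in 4 of 4 batch pairs. By limma-trend on log2(FPKM + 1) over all rows above 0 it was not called (adjusted p = 0.0816; range over 18 alternatives 0.000367 to 0.0816). Its alpha partner gene Itgav had 23.2, 24.6, 24.1 and 23.1 FPKM with vehicle and 23.8, 22.6, 22.2 and 22.0 FPKM with Mic-628. These ranges overlapped, and Itgav was not called (log2 fold change -0.07; edgeR adjusted p = 0.331). The neighbours of Itgb5 within 50 kb were not called, the nearest being Umps (log2 fold change 0.11; edgeR adjusted p = 0.109).

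The beta transcripts of these cells were mostly Itgb1, the partner of most alpha chains. Itgb1 had 175, 172, 168 and 165 FPKM with vehicle and 176, 172, 171 and 169 FPKM with Mic-628. The groups overlapped throughout, with a fold of 1.01 and a 95% interval of 0.971 to 1.06 (edgeR adjusted p = 0.794). In the summed FPKM of the 8 beta genes, Itgb1 took 68.8 ± 0.296% in vehicle and 66.1 ± 0.752% in Mic-628 libraries (SD, n = 4 each). Itgb5 took 21.2 ± 0.205% and 17.9 ± 0.462%, and Itgb7 took 8.20 ± 0.440% and 14.3 ± 0.674%. Because shares add up to the whole, the lower share of Itgb1 stands beside a level that was not called. The sum itself was 246.9 ± 5.79 FPKM with vehicle and 260.9 ± 1.69 FPKM with Mic-628. Shares are a description and were not tested.

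The remaining beta genes were weakly expressed. Itgb3, whose product pairs with αv, was at 2.69 ± 0.296 FPKM with vehicle and 2.62 ± 0.334 FPKM with Mic-628. Below it came Itgb2, then Itgb8, a subunit of a receptor that activates latent TGF-beta, at 0.657 ± 0.053 and 0.644 ± 0.038 FPKM, and Itgb4, the hemidesmosome chain of epithelia, at 0.294 ± 0.057 and 0.324 ± 0.046 FPKM. None of these 4 was called (edgeR adjusted p 0.743 to 0.933), and their intervals were wide, from a fold of 0.788 to 1.41. Itgb6, an epithelial chain, had at most 1 count in a library and was not tested. Itgbl1, which resembles a beta subunit but lacks the part that anchors it in the membrane, stood at 2.86 ± 0.183 and 2.63 ± 0.151 FPKM and was not called (log2 fold change -0.12; edgeR adjusted p = 0.420).

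**Figure D3:**
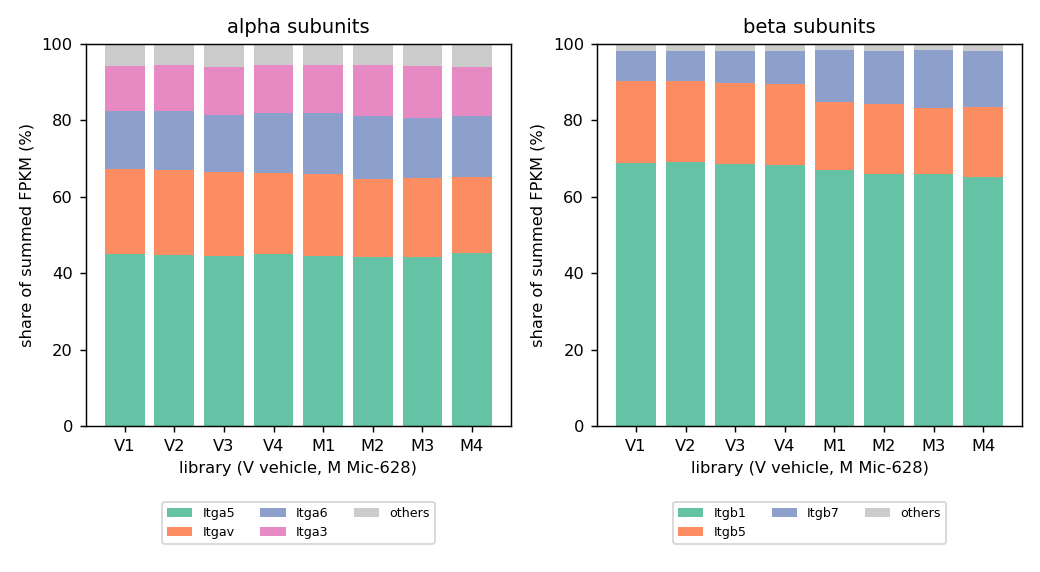
Share of each subunit in the summed FPKM of the 12 alpha genes (left) and the 8 beta genes (right), in percent, for each library. The alpha bars look alike in all 8 libraries, while the Itgb7 part of the beta bars is 8.20% on average with vehicle and 14.3% with Mic-628.

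Among alpha genes, 4 made up nearly all of the transcripts and none was called. Itga5, the fibronectin receptor chain, led with 47.4, 50.1, 49.3 and 48.9 FPKM with vehicle and 49.2, 48.6, 47.5 and 50.6 FPKM with Mic-628. Its values overlapped fully (fold 1.00, 95% interval 0.957 to 1.05; edgeR adjusted p = 0.987). Itga5 took 44.9 ± 0.243% of the alpha sum with vehicle and 44.6 ± 0.582% with Mic-628, Itgav 21.8 ± 0.400% and 20.7 ± 0.718%, Itga6 15.4 ± 0.302% and 16.1 ± 0.269%, and Itga3 12.2 ± 0.385% and 13.0 ± 0.478%. The alpha sum was 108.9 ± 2.88 FPKM with vehicle and 109.8 ± 1.68 FPKM with Mic-628. In this order the vehicle ranges of Itga5, Itgav, Itga6 and Itga3 did not overlap with each other.

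The laminin receptor genes Itga3 and Itga6 had the lowest p among alpha genes without reaching the threshold. Itga3 had 12.4, 13.3, 13.9 and 13.6 FPKM with vehicle and 13.7, 14.6, 14.4 and 14.3 FPKM with Mic-628. The groups overlapped, although the Mic-628 library exceeded its vehicle partner in 4 of 4 batches (log2 fold change 0.10; edgeR adjusted p = 0.169). Itga6 was at 16.7 ± 0.633 and 17.7 ± 0.440 FPKM (SD, n = 4 each), also higher in 4 of 4 pairs (0.08; edgeR adjusted p = 0.276). Itga7, the chain typical of muscle, was at 1.56 ± 0.190 and 1.6 ± 0.307 FPKM.

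The other alpha genes were expressed at low levels. Itga8, an RGD-binding chain of mesenchymal cells, stood at 2.41 ± 0.052 and 2.55 ± 0.098 FPKM. Itga9, the relative of α4, stood at 0.853 ± 0.072 and 0.852 ± 0.041 FPKM. The collagen receptors were low throughout, led by Itga11, the main fibrillar collagen receptor of fibroblasts, at 0.961 ± 0.120 and 0.874 ± 0.079 FPKM. Itga10 was at 0.299 ± 0.028 and 0.257 ± 0.035 FPKM. The span of Gm42957, on the same strand with a mean of 202 counts against 31.5 for Itga10, overlaps that of Itga10, introns included. Itga1 had 0.082 to 0.105 FPKM with vehicle and 0.106 to 0.124 FPKM with Mic-628, so the groups did not overlap, but it was not called (log2 fold change 0.28; edgeR adjusted p = 0.499) and had only 21 to 30.5 counts per library. The spans of Pelo, with a mean of 338 counts, and of 2 predicted genes overlap that of Itga1, introns included. Whether their exons overlap was not tested, so it is uncertain whether reads of Itga1 could come from them. Itga2 had 2 to 6 counts per library and was not tested.

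**Figure D4:**
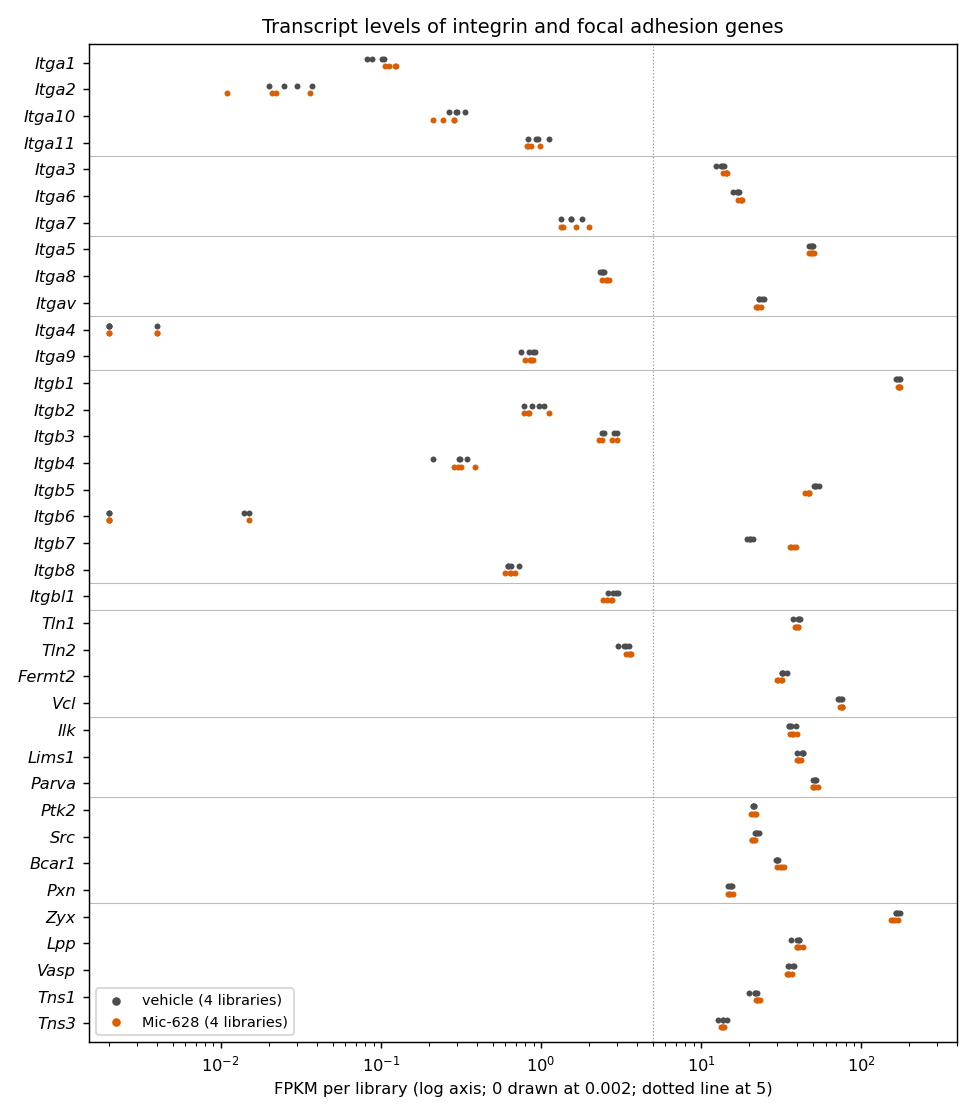
FPKM of each of the 37 members in each library (points; log axis, values of 0 drawn at 0.002), vehicle in grey and Mic-628 in orange, grouped by role between the grey lines. Itgb1 and Zyx lie at the top near 170 FPKM, the plaque genes except Tln2 lie right of the dotted line at 5 FPKM, and of the integrins only Itga3, Itga5, Itga6, Itgav, Itgb1, Itgb5 and Itgb7 do.

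Inside the cell, the 16 genes of the plaque were tested and 0 of 16 were called by edgeR, where 4.37% of all tested rows were called. For 16 genes a count of 0 is near that share. The 95% intervals of all 16 lay between a fold of 0.894 and 1.14, so differences within these bounds remain possible. An unadjusted p under 0.05 was found for 5 of the 16, against 17.0% of all tested rows. These were Fermt2, Tln2, Bcar1, Src and Tns1, with log2 fold changes between -0.09 and 0.10. The same 16 were not called in any of the alternatives tried, DESeq2 included.

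Fermt2, which encodes kindlin-2, the fibroblast kindlin, came closest. It had 34.4, 32.6, 32.3 and 32.1 FPKM with vehicle and 30.2, 31.9, 29.7 and 31.4 FPKM with Mic-628. The groups did not overlap, but it was not called (log2 fold change -0.09, SE 0.035; edgeR adjusted p = 0.161). The talin genes were unequal in level: Tln1, the general form, was at 40.02 ± 1.81 and 39.7 ± 0.789 FPKM, and Tln2, the form of muscle and brain, at 3.32 ± 0.212 and 3.56 ± 0.117 FPKM (edgeR adjusted p 0.897 and 0.251). Vcl, the vinculin gene, was at 73.9 ± 1.98 and 75.5 ± 1.19 FPKM (edgeR adjusted p = 0.670). The span of Vcl, introns included, overlaps that of Ap3m1 on the opposite strand, with a mean of 4234 counts beside 8865 for Vcl. Whether their exons overlap was not tested, and whether reads of the 2 were told apart by strand is uncertain.

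The 3 genes of the complex that links the beta tail to actin through integrin-linked kinase were of similar level. Parva, the actin-binding parvin, stood at 51.3 ± 1.03 and 51.6 ± 1.69 FPKM, the adaptor Lims1 (PINCH) at 42.2 ± 1.66 and 40.7 ± 0.921 FPKM, and Ilk itself at 36.6 ± 1.68 and 37.7 ± 1.54 FPKM. Their log2 fold changes were between -0.05 and 0.04. The span of Ilk, introns included, overlaps those of Rrp8 and Taf10 on the opposite strand, with means of 950.2 and 2731 counts beside 1493 for Ilk. Whether their exons overlap was not tested, and it is uncertain whether reads of these genes were told apart by strand.

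Signalling members lay at moderate levels. Bcar1, the Src-phosphorylated scaffold of focal adhesions, was at 29.9 ± 0.374 and 31.6 ± 1.39 FPKM, and higher in 4 of 4 batch pairs (log2 fold change 0.08; edgeR adjusted p = 0.241). Src itself was at 22.3 ± 0.627 and 21.2 ± 0.542 FPKM, and lower in 4 of 4 (-0.07; edgeR adjusted p = 0.293). The kinase gene Ptk2 (focal adhesion kinase) stood at 21.2 ± 0.207 and 21.4 ± 0.641 FPKM, and the scaffold gene Pxn (paxillin) at 15.2 ± 0.303 and 15.1 ± 0.513 FPKM, with log2 fold changes of 0.01 and -0.01.

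Among genes of mature adhesions and of the actin link, Zyx had the highest level of the plaque. This gene of a mechanosensitive LIM protein had 165, 164, 169 and 175 FPKM with vehicle and 170, 158, 163 and 153 FPKM with Mic-628. The groups overlapped (log2 fold change -0.07; edgeR adjusted p = 0.343), and the vehicle level of Zyx was within the spread of that of Itgb1. Its relative Lpp was at 39.6 ± 2.05 and 41.0 ± 1.79 FPKM, and Vasp, which promotes actin filament growth, at 36.6 ± 1.48 and 35.5 ± 1.13 FPKM. The tensin genes Tns1 and Tns3, whose products bind beta tails in fibrillar adhesions, had log2 fold changes of 0.07 and -0.01, with levels of 21.5 ± 1.03 and 22.6 ± 0.499 FPKM for Tns1.

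The other genes of the pathway were compared by list. Of 31 tested further adaptors and actin linkers 1 rose, 1 fell and 29 were not called, a called share of 6.45% beside the 4.37% of all tested rows, and the median log2 fold change was -0.0021. Palld, the actin bundler palladin, fell (log2 fold change -0.13; edgeR adjusted p = 0.0293). Tns2 (0.11) and Ajuba (-0.09) were not called (edgeR adjusted p 0.0660 and 0.106). Palld was not called with the replicate block (0.0623; range over 18 alternatives 0.00694 to 0.326), nor when any of vehicle libraries 2 and 3 and Mic-628 libraries 2, 3 and 4 was left out (0.0795 to 0.128). Tns2 was called without vehicle replicate 3 (0.0450; range over 18 alternatives 0.0450 to 0.497).

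Of 28 tested further signalling genes 0 rose, 1 fell and 27 were not called (3.57% called), with a median log2 fold change of -0.0058. Cav1, the caveolin gene, fell from 261.7 ± 10.7 to 235.4 ± 8.57 FPKM (SD, n = 4 each; log2 fold change -0.15; edgeR adjusted p = 0.0105). Leaving out vehicle replicate 2, or Mic-628 replicate 3, ended that call (adjusted p 0.0748 and 0.0631 by edgeR; range over 18 alternatives 0.000271 to 0.195). The co-receptor gene Sdc4 (-0.19), the Src-family gene Yes1 (0.12) and Ptk2b (-0.50), the sparse relative of Ptk2, were not called (edgeR adjusted p 0.124, 0.129 and 0.224). Sdc4 was called without vehicle replicate 4 (log2 fold change -0.27; edgeR adjusted p = 0.00371) and with no low-count filter (0.000368; range over 18 alternatives 0.000368 to 1.00).

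The genes of integrin ligands were counted in the same way. Of 28 tested ligand genes 14 fell, 1 rose and 13 were not called, a called share of 53.6% beside 4.37% of all tested rows, and 5.88% of the tested members. Their median log2 fold change was -0.13. Spp1, which encodes osteopontin, a ligand of αv and α9 integrins, had 271, 275, 267 and 265 FPKM with vehicle and 227, 201, 212 and 214 FPKM with Mic-628. The groups did not overlap (log2 fold change -0.33, SE 0.035; edgeR adjusted p = 5.29e-07). Col3a1 (-0.57) and Fn1 (-0.28) fell, and Ccn1, a matricellular ligand of αv and α6 integrins, rose (0.23), with edgeR adjusted p of 8.57e-07, 1.66e-05 and 0.000175. The ligand list shares genes with matrix genes already known to be lower in these libraries, so its direction is no independent evidence. The number of ligand genes called was 9 without vehicle replicate 2 and 7 with the replicate block in DESeq2. By limma-trend on log2(FPKM + 1) over all rows above 0 it was 1. In that fit Col3a1, Fn1 and Ccn1 were not called (limma-trend adjusted p 0.0529, 0.0875 and 0.0507, each the highest over 18 alternatives).

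Ligands and receptors can be set side by side pair by pair. Fn1 fell while its receptor genes Itga5 (log2 fold change 0.0018) and Itgb1 (0.02) were not called. Spp1 and Itgb5 both fell, by different amounts (-0.33 and -0.16), while Itgav was not called (-0.07). Col3a1 fell while the collagen receptor gene Itga11 was weakly expressed and not called (-0.13). Whether ligand and receptor differences differ from each other was not tested.

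**Figure D5:**
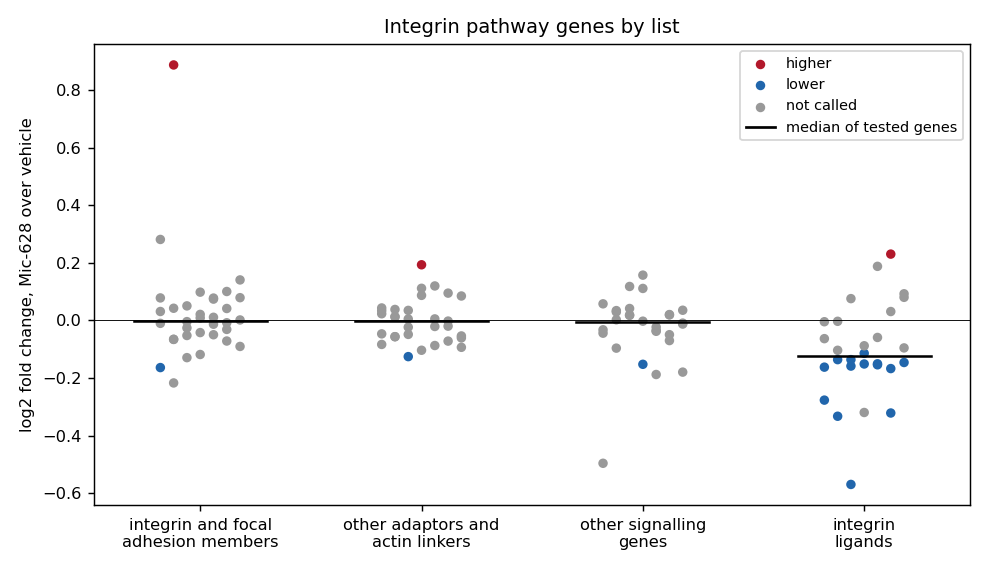
Log2 fold change of each tested gene (points), Mic-628 over vehicle, for the members and the 3 other pathway lists; red and blue mark genes called higher and lower, and the black line is the median of the list. The first 3 lists centre on 0, with Itgb7 as the highest point of the plot at 0.89, while the ligand list is centred at -0.13 with 14 blue points.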

How the data were processed

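Messenger RNA of NIH3T3 cells was sequenced in 8 libraries, 4 per group. Per the labels, RNA was extracted with Trizol and libraries came from a stranded mRNA kit read as paired ends. The submitters' processing notes list build mm39 and the tools HOMER 4.11, STAR 2.7.10a and bcl2fastq, without their roles. The authors deposited exon counts per canonical transcript, whose smallest step is 0.5 (hence estimated counts), and FPKM values for the same rows. FPKM recomputed from the counts, exon length and header totals differed by at most 5e-04. Header totals were 19627356 to 25057594 per library, and 92.3% to 93.1% of them fell on rows.

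After rounding, edgeR 4.0.16 under R 4.3.3 was the test (filterByExpr with a minimum count of 10, TMM, quasi-likelihood F test, Benjamini-Hochberg over all 17128 tested rows). SE is the log2 fold change divided by the square root of F, and intervals are 95%. Levels between genes are compared in FPKM, which depends on the length of the canonical transcript. Batch numbers in the labels pair the libraries; the correlations of deviations within pairs were -0.0925, 0.0744, -0.0213 and -0.0949 over 10292 genes (mean log2 CPM over 3), and the block was an alternative. Others were DESeq2 1.42.0, other scalings and filters, limma-trend (limma 3.58.1) on log2(FPKM + 1) or log2(FPKM + 0.1), and leaving out each library. Replicates differed by more than counting noise (chi-square per gene 1.66 to 5.33), so none was treated as a duplicate. The procedure was also run on simulated counts drawn from the fitted means and spread. Those libraries were independent, so that run cannot show how technical libraries would affect the calls.

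The members and lists were chosen with earlier results of these data known. All members could be named; from each other pathway list the 4 genes with the smallest p are named, except 1 adaptor that is not reported here. Neighbours of the called members, Itgae, Itgad, Itgal, Itgam, Itgax, Itga2b, Madcam1 and Vcam1, and the motifs CANNTG and GGGCGG were added after values were seen. Promoters were matched by symbol for 28 of 37 members, from RefSeq on GRCm38.p6. Python 3.11.15 and matplotlib 3.10.9 made the figures.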

Additional observations from a re-analysis of the deposited data

Results flagged for a closer look

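Within groups of 4 libraries, 4 of 92 sets of values held a library far from the other 3 (a gap to the nearest one that takes up most of the range), and chance gives about 1 in 20. Among members, Itgb2 was high in Mic-628 replicate 1 at 3.59 CPM, beside 2.51 to 2.66 CPM in the other Mic-628 libraries. Tln1 was low in vehicle replicate 1 at 333.6 CPM, beside 364 to 370.3 CPM, and Fermt2 was high in the same library at 121 CPM, beside 113.6 to 114.8 CPM. Outside the members, Yes1 was high in vehicle replicate 2 at 41.9 CPM, beside 39.6 to 39.7 CPM. Without vehicle replicate 1 neither Tln1 nor Fermt2 was called.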

How the results depend on the processing

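The calls of Itgb7 held in all 18 alternatives, with log2 fold changes of 0.86 to 0.91, and those of Itgb5 in 17 of 18 (-0.18 to -0.14). The count of called members was 2 in all but limma-trend on log2(FPKM + 1) over all rows above 0, where it was 1, with 1 higher and 0 lower; leaving out each library gave 2 every time. The replicate block in edgeR gave 624 rows called, 2 members, 1 other adaptor, 1 signalling gene and 13 ligands; with the block in DESeq2 these were 243, 2, 0, 1 and 7. With rows called by limma-trend above a mean FPKM of 0.5, the counts were 277 rows with a pseudocount of 1 and 273 with 0.1, and in both 0 adaptors, 0 signalling genes and 5 ligands; over all rows above 0 it called 170, 0, 0 and 1. Without a low-count filter edgeR called 2 signalling genes. Leaving out each library gave 426 to 802 rows (426 without vehicle replicate 2, 438 without Mic-628 replicate 3), 1 to 3 adaptors, 0 to 2 signalling genes and 9 to 16 ligands. The causes were not tested. In edgeR the block ended the call of Palld and changed no other call of a named gene. Of the comparisons of single genes and shares with their alternatives, 24 lost a call, 3 gained one and 8 shares moved, all 8 with CPM in place of FPKM. The other 870 kept the call, the lack of one, or a share within its SD. While 0 called values changed sign, uncalled genes could, such as Itga7 (log2 fold change -0.083 to 0.126 over 18 alternatives). The 12 uncalled members under 5 FPKM had intervals from 0.669 to 1.59-fold, against 0.894 to 1.13 for the 20 above. The outer bounds came from Itga10 and Itga1, with means of 31.5 and 26 counts. Tln2, also under 5 FPKM but with a mean of 940.5 counts, had an interval of 1.01 to 1.14.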

Other observations

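Itga2b, the platelet chain that pairs with β3, was detected at 1.78 ± 0.244 FPKM with vehicle and 1.68 ± 0.151 FPKM with Mic-628 (SD, n = 4 each), below the 2.69 ± 0.296 FPKM of Itgb3 with vehicle, and was not called (log2 fold change -0.07). The leukocyte alpha genes Itgal, Itgam, Itgax and Itgad had 6.5, 11, 5 and 18.5 counts summed over all 8 libraries.

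Among the 28 members with a promoter sequence, the CArG box, the site of serum response factor, was found in the 250-base windows of Vcl, Fermt2 and Itgb6, and in 1.47% of all 32851 windows. The TEAD letters GGAATG, on either strand, were in those of Vcl, Itgb1, Lpp and Itga10 (12.6% of all windows), and CACGTG in those of Ilk and Lims1 (6.02% of all windows). None of these genes was called changed by edgeR, and Itgb6 was too sparse to test. These matches are descriptions of the letters in the windows.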
